A study of Homo sapiens with 9 samples.

Results

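The genes described here encode the semaphorins, plexins, neuropilins, ephrins and Eph receptors, the contact and guidance cues that neighbouring cells use to repel, attract or sort from each other. They were taken from the deposited count table as every protein-coding gene whose symbol is SEMA with a digit, PLXNA, PLXNB, PLXNC or PLXND with a digit, NRP1 or NRP2, EPHA or EPHB with a digit, or EFNA or EFNB with a digit. This gave 53 of the 60708 rows: 7 class 3 semaphorins, 13 semaphorins of classes 4 to 7, 9 plexins, 2 neuropilins, 5 ephrin-A and 3 ephrin-B ligands, and 9 EPHA and 5 EPHB receptors.

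The study asked how cells of a triple-negative breast cancer fare after a passing block of splicing. RNA was sequenced from MDA-MB-231, an established human line of that cancer with a mesenchymal character, in 3 groups of 3 libraries. Recovery cells had been given 10 nM pladienolide B for 16 h and were collected 24 h after it (Recovery). PdB cells had been given 10 nM pladienolide B for 16 h (PdB), and DMSO cells the solvent dimethyl sulfoxide (DMSO), for a time the labels do not state. Pladienolide B (PdB) is a macrolide that binds the SF3B complex of the U2 small nuclear ribonucleoprotein and stops the spliceosome from engaging introns. All libraries come from this cell line alone, and separate cultures are not stated for the replicates, so a p-value here measures the spread between libraries, which may be technical.

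Class 3 semaphorins are secreted and bind a neuropilin, which presents them to a plexin. Semaphorins of classes 4 to 7 are held in the membrane and mostly bind plexins directly, and plexins act inside the cell through a domain that switches off small GTPases of the Ras and Rap kind. Ephrin-A ligands are anchored to the membrane by a lipid and ephrin-B ligands span it. Both bind Eph receptors, a large family of receptor tyrosine kinases, and contact between an Eph-bearing cell and an ephrin-bearing cell often ends in repulsion. In breast cancer EPHA2 and neuropilin-1 are known for high levels in mesenchymal and basal-like cells.

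Total counts per library ran from 56389689 to 67047079. Levels are given as CPM, counts relative to the library total after TMM scaling, or as RPKM, the same per kilobase of exon, where genes are compared with each other. Of the 4 markers for the line that should be present (VIM, CD44, AXL, ITGB1), none was at 0, and their summed level was 3240 to 3250 CPM in recovery cells, 5760 to 6120 CPM in PdB cells and 6930 to 7080 CPM in DMSO cells. All 4 fell in recovery against DMSO, whereas under PdB VIM, CD44 and AXL fell and ITGB1 rose (0.59 ± 0.045 on the log2 scale). ESR1 was at 0 in all 9 libraries and PGR averaged at most 0.0251 CPM in any group. ERBB2, the third receptor that defines the cancer, was measured at 73.7 ± 0.959 CPM in recovery cells, 51.7 ± 2.28 in PdB cells and 106 ± 3.65 in DMSO cells (SD, n = 3 each). EPCAM, an epithelial adhesion molecule, had 2.42 ± 0.223 CPM in recovery cells, 5.71 ± 0.703 in PdB cells and 5.29 ± 0.799 in DMSO cells. CDH1, the epithelial cadherin, had 1.28 ± 0.131 CPM in recovery cells, 0.223 ± 0.175 in PdB cells and 0.3099 ± 0.343 in DMSO cells and was called higher at recovery than in DMSO (adjusted p = 0.0183). Leukocyte markers summed to at most 1.13 CPM and endothelial markers to at most 1.84 CPM, while the 4 neuronal markers, almost all of it TUBB3, summed to 24.2 to 28 CPM in recovery cells, 40.8 to 47.1 CPM in PdB cells and 60.3 to 65.4 CPM in DMSO cells. Mitochondrial genes took 8.02% to 8.18% of counts in recovery cells, 6.71% to 8.43% in PdB cells and 4.67% to 5.59% in DMSO cells. Their part in the results below was not tested. In bulk RNA, fewer cells of a kind and less RNA per cell cannot be told apart.

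Guidance genes held a smaller share of counts in both treated groups. CPM is relative to the library, so transcripts per cell were not measured, and gene counts do not tell spliced from unspliced RNA. The 53 genes together held 1676 to 1695 CPM in recovery cells, 1464 to 1529 CPM in PdB cells and 2520 to 2698 CPM in DMSO cells. Neither treated group overlapped with DMSO. In recovery cells NRP1, EPHA2, PLXNA1 and PLXNB2 held 11.6%, 25.3%, 5.62% and 14.4% of that sum. In PdB cells their shares were 12.5%, 18.4%, 9.77% and 16.3%, and in DMSO cells 16.1%, 15%, 14% and 10.7%. The share of PLXNA1, a plexin that takes class 3 semaphorins, was thus lowest at recovery, and that of EPHA2, a receptor tyrosine kinase for ephrin-A ligands, highest.

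Of the 53 genes, 47 passed the filter on low counts and were tested. SEMA5B, EPHA3, EPHA6, EPHA7, EPHA8 and EPHB1 were not tested. Their highest count in any library was 11, in SEMA5B in PdB replicate 2, and EPHB1 had 2 counts in DMSO replicate 1 and 0 in the other libraries. In PdB against DMSO, 6 of the 47 rose (12.8%) and 27 fell (57.4%) at an adjusted p below 0.05, where 32.0% of all 20812 genes tested rose and 38.2% fell. Of the protein-coding genes tested, 32.5% rose and 46.6% fell. At least 2-fold, 4 of the 47 rose and 19 fell, beside 17.4% and 22.2% of all genes and 1977 and 3606 of the 14226 protein-coding ones. The median log2 change of the 47 was -0.68, that of all genes tested -0.11 and that of the protein-coding ones -0.23.

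In recovery against DMSO, 10 rose (21.3%) and 22 fell (46.8%), where 30.7% of all genes rose and 30.5% fell, and 32.7% and 38.9% of the protein-coding ones. At least 2-fold, 7 rose and 16 fell, beside 13.6% and 11.8% of all genes and 1451 and 1946 of the 14226 protein-coding ones. The median log2 change was -0.51, with 0.026 for all genes and -0.07 for the protein-coding ones. In recovery against PdB, 20 rose (42.6%) and 12 fell (25.5%), where 34.6% of all genes rose and 31.5% fell, and 40.4% and 36.1% of the protein-coding ones. At least 2-fold, 11 rose and 5 fell, beside 19.7% and 13.2% of all genes and 2963 and 1781 of the protein-coding ones. The medians were 0.12, 0.062 for all genes and 0.086 for the protein-coding ones. Libraries of the groups compared did not overlap for 31 of the 47 genes (66%) in PdB against DMSO. The share was 72.5% for all genes tested and 80.2% for the protein-coding ones. In recovery against DMSO there were 36 such genes (76.6%), beside 70.4% and 78.5%, and in recovery against PdB 29 (61.7%), beside 70.5% and 78.8%. With library totals as the only scaling, that last split was 25 up and 9 down for the guidance genes and 8862 up and 4876 down for all genes, and the median of all genes was 0.33. The 3 comparisons share their libraries pairwise, so their counts are not independent.

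By role, of 20 plexins, neuropilins and Eph receptors tested, 0 rose and 14 fell under PdB by edgeR's quasi-likelihood test, 9 of them at least 2-fold. The falls are 70% of these receptors, beside 46.6% of all protein-coding genes tested, of which 32.5% rose. At an unadjusted p below 0.05, 1 receptor rose and 14 fell, and by DESeq2 2 rose and 13 fell. The receptor with the largest positive log2 change was EPHA5, at 0.46 ± 0.22. With RLE or upper-quartile factors and with DESeq2 it was called a rise, as was EPHA4, at adjusted p from 0.0157 to 0.0372. Of 27 semaphorins and ephrins tested, 6 rose (22.2%) and 13 fell (48.1%) under PdB, the falls near the 46.6% of protein-coding genes. Whether ligands and receptors differ was not tested. In recovery against DMSO, 4 of the 20 receptors rose and 10 fell (50%), and of the 27 ligands 6 rose and 12 fell (44.4%). Among protein-coding genes tested, 32.7% rose and 38.9% fell there.

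**Figure D1:**
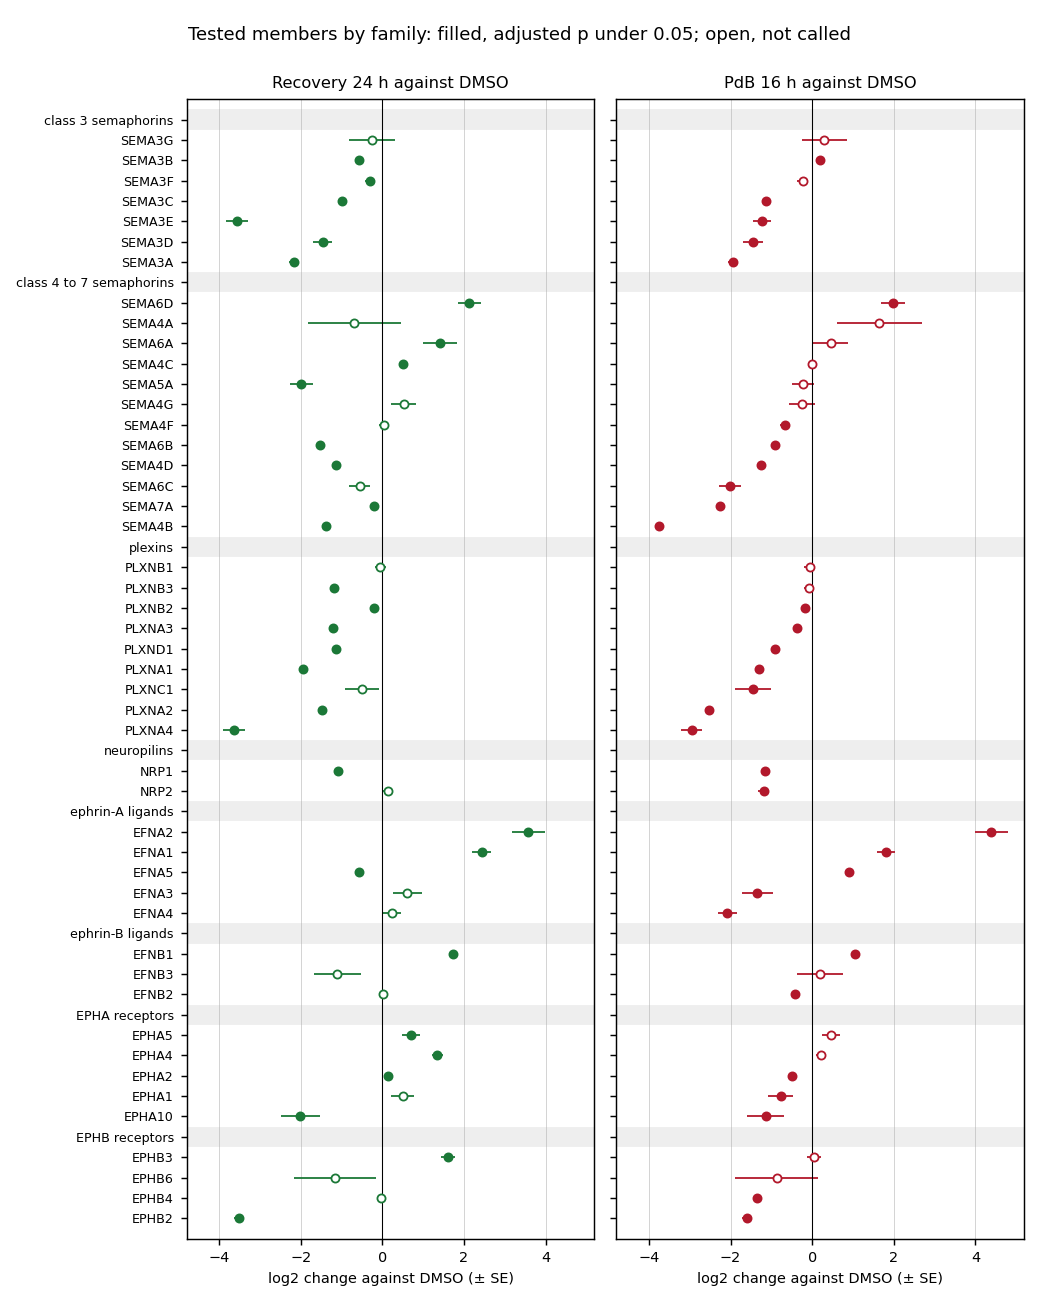
Log2 change against DMSO (x axis, bars ± SE) of the 47 tested genes by family, for recovery (left panel) and PdB (right panel), with filled points at an adjusted p below 0.05 and open points not called. Under PdB the filled points right of 0 are SEMA3B, SEMA6D, EFNA2, EFNA1, EFNA5 and EFNB1, and at recovery the receptors EPHA2, EPHA4, EPHA5 and EPHB3 are among them.

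Among the secreted class 3 semaphorins, 4 of 7 fell and 1 rose under PdB, and 6 of 7 fell at recovery against DMSO. DESeq2 called 5 falls at recovery against DMSO. Over all protein-coding genes tested, 46.6% fell under PdB and 38.9% at recovery against DMSO. SEMA3A, the founding repellent of the class (ENSG00000075213.11, chromosome 7, 83955777 to 84492724, minus strand), had 9.93, 9.55 and 8.57 CPM in recovery cells, 10.7, 12.3 and 9.66 CPM in PdB cells and 45.5, 45.3 and 34.9 CPM in DMSO cells. Both treated groups lay below every DMSO library and overlapped with each other. Its log2 change was -1.95 ± 0.11 (adjusted p = 2.28e-11) in PdB against DMSO and -2.17 ± 0.12 (adjusted p = 1.34e-11) in recovery against DMSO, while recovery against PdB gave -0.22 ± 0.12 (adjusted p = 0.106). SEMA3C, a ligand that promotes migration of some carcinoma cells and the class member with the highest level per length, had 81.2, 81.8 and 72.6 CPM in recovery cells, 70.03, 74.2 and 69.3 CPM in PdB cells and 165, 158 and 146 CPM in DMSO cells. It fell in both treated groups against DMSO, by a log2 change of -1.14 ± 0.061 (adjusted p = 6.67e-12) under PdB and -0.99 ± 0.061 (adjusted p = 8.81e-11) at recovery. The call that recovery was above PdB, 0.14 ± 0.061 (adjusted p = 0.0487) with overlapping groups, was lost with RLE factors (0.09, adjusted p = 0.214), with DESeq2 (adjusted p = 0.23), and without DMSO replicate 2, PdB replicate 1 or 3 or recovery replicate 1 or 2, with adjusted p from 0.0624 to 0.8.

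SEMA3E, which differs from its class in binding plexin-D1 without a neuropilin, was lowest in recovery cells. It had 0.465, 0.6698 and 0.489 CPM in recovery cells, 3.08, 3.002 and 2.11 CPM in PdB cells and 6.93, 7.801 and 4.55 CPM in DMSO cells, and no pair of groups overlapped. The log2 change was -3.56 ± 0.26 (adjusted p = 1.17e-09) in recovery against DMSO, -1.23 ± 0.23 (adjusted p = 0.000102) in PdB against DMSO and -2.33 ± 0.26 (adjusted p = 2.86e-07) in recovery against PdB. SEMA3B, a semaphorin known as a candidate tumour suppressor on chromosome 3, had 27.9, 24.2 and 25.5 CPM in recovery cells, 45.6, 41.1 and 44.96 CPM in PdB cells and 37.6, 35.3 and 42.2 CPM in DMSO cells. Recovery lay below both other groups, with a log2 change of -0.57 ± 0.08 (adjusted p = 5.46e-06) against DMSO and -0.76 ± 0.08 (adjusted p = 1.07e-07) against PdB. PdB and DMSO overlapped, and the rise under PdB (0.19 ± 0.079, adjusted p = 0.0375) was not called without DMSO replicate 1 or 2 or PdB replicate 1 or 3 (adjusted p from 0.0716 to 0.177) or without the filter (adjusted p = 0.0843). With library totals it was -0.004. SEMA3D fell by 1.45 ± 0.24 under PdB and fell by 1.46 ± 0.24 at recovery against DMSO, both on the log2 scale, and SEMA3G passed no test.

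SEMA3F, which binds neuropilin-2, averaged 6.24 ± 0.299 CPM in recovery cells and 7.696 ± 0.327 CPM in DMSO cells (SD, n = 3 each). Its log2 change of -0.30 ± 0.13 (adjusted p = 0.0493) at recovery was called at the edge of the threshold. The call was lost without any of the 6 libraries of that comparison, with adjusted p from 0.0644 to 0.141. It was also lost with each other scaling and filter tried and with DESeq2 (adjusted p from 0.0792 to 0.136). PdB against DMSO gave -0.24 ± 0.13 (adjusted p = 0.112).

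The membrane-bound semaphorins of classes 4 to 7 included SEMA4B, the gene with the deepest fall of the 47 under PdB. Of 12 tested, 1 rose and 6 fell (50%) under PdB, and 7 rose (58.3%) and 2 fell in recovery against PdB. Beside them, 46.6% of protein-coding genes tested fell under PdB and 40.4% rose in recovery against PdB. SEMA4B (ENSG00000185033.14, chromosome 15, 90160604 to 90229679, plus strand) had 23.6, 19.98 and 25.3 CPM in recovery cells, 4.37, 4.21 and 4.78 CPM in PdB cells and 61.4, 55.3 and 63.8 CPM in DMSO cells. The 3 groups did not overlap, and recovery lay between the others. PdB against DMSO gave -3.76 ± 0.10 (adjusted p = 8.3e-16), recovery against DMSO -1.39 ± 0.089 (adjusted p = 1.7e-10) and recovery against PdB 2.37 ± 0.10 (adjusted p = 4.23e-13). SEMA7A, a lipid-anchored semaphorin that signals through plexin-C1 and integrins and the class 4 to 7 gene with the highest level per length, had 65.97, 61.6 and 68.9 CPM in recovery cells, 16.9, 15.7 and 14.9 CPM in PdB cells and 72.9, 81.9 and 71.1 CPM in DMSO cells. PdB lay far below the other groups, with log2 changes of -2.25 ± 0.075 (adjusted p = 8.2e-15) in PdB against DMSO and 2.05 ± 0.074 (adjusted p = 4.56e-14) in recovery against PdB. Recovery against DMSO gave -0.20 ± 0.069 (adjusted p = 0.0171), a call that was lost with RLE factors (adjusted p = 0.0628), with DESeq2 (adjusted p = 0.0634), without DMSO replicate 2 (adjusted p = 0.126) and without recovery replicate 2 (adjusted p = 0.0753).

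SEMA6D, a membrane semaphorin that binds plexin-A1, was the class 4 to 7 gene that rose under PdB. It had 4.28, 3.52 and 2.801 CPM in recovery cells, 3.79, 2.88 and 2.81 CPM in PdB cells and 0.893, 1.08 and 0.448 CPM in DMSO cells, so that both treated groups lay above DMSO. The log2 change was 1.97 ± 0.29 (adjusted p = 7.51e-06) under PdB and 2.13 ± 0.29 (adjusted p = 3.7e-06) at recovery, and recovery against PdB gave 0.16 ± 0.27 (adjusted p = 0.611). SEMA5A, a semaphorin with thrombospondin repeats, had 0.946, 1.32 and 1.69 CPM in recovery cells, 3.08, 4.05 and 6.34 CPM in PdB cells and 5.17, 3.79 and 6.74 CPM in DMSO cells. Recovery lay below both other groups, which overlapped. Recovery gave -1.98 ± 0.28 (adjusted p = 6.81e-06) against DMSO and -1.76 ± 0.28 (adjusted p = 2.44e-05) against PdB, while PdB against DMSO was -0.22 ± 0.26 (adjusted p = 0.463).

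Other class 4 to 7 genes also changed. On the log2 scale SEMA6C fell by 2.005 ± 0.27 under PdB, and SEMA4D, known as a plexin-B1 ligand, fell by 1.26 ± 0.086. Recovery against DMSO gave a fall for SEMA4D (-1.14 ± 0.085) and for SEMA6B (-1.53 ± 0.08), whereas SEMA6C (-0.56 ± 0.25, adjusted p = 0.0613) did not pass. SEMA4F fell by 0.68 ± 0.11 under PdB and gave 0.032 ± 0.11 (adjusted p = 0.813) in recovery against DMSO. SEMA4C gave -0.004 ± 0.073 (adjusted p = 0.966) under PdB and rose in recovery against DMSO, with a log2 change of 0.51 ± 0.073. SEMA6A averaged 1.47 ± 0.261 CPM in recovery cells and 0.547 ± 0.212 CPM in DMSO cells (SD, n = 3 each), a log2 change of 1.42 ± 0.42 (adjusted p = 0.00688). SEMA6A-AS1, antisense to it, held 63.8% as many counts. In recovery against PdB the calls of SEMA6A (0.96 ± 0.41, adjusted p = 0.0499) and SEMA4G (0.77 ± 0.31, adjusted p = 0.0393) were lost with RLE factors (adjusted p = 0.0617 and 0.0517). That of SEMA6A was also lost without DMSO replicate 1, PdB replicate 1 or 3 or any recovery replicate, with adjusted p up to 0.158, and that of SEMA4G without PdB replicate 2 or recovery replicate 1 or 2, with adjusted p up to 0.214. SEMA4A averaged 0.271 ± 0.1899 CPM in PdB cells and 0.0849 ± 0.0735 CPM in DMSO cells and passed no test.

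**Figure D2:**
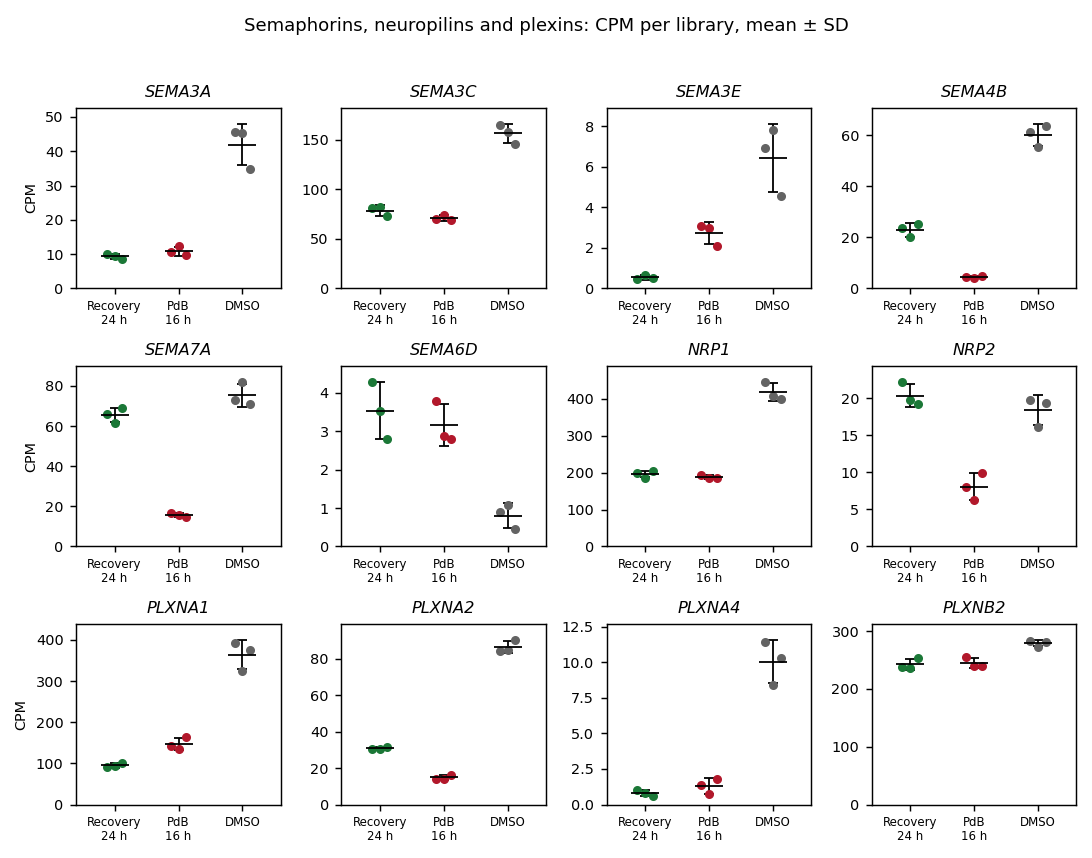
CPM (y axis, from 0) in each library of recovery, PdB and DMSO cells (x axis) for 12 semaphorin, neuropilin and plexin genes, with points for libraries and bars for mean ± SD of 3. SEMA4B and SEMA7A were lowest in PdB cells, SEMA3E lowest in recovery cells, and SEMA3A and NRP1 below DMSO in both treated groups, which overlapped.

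Both neuropilins, the co-receptors for class 3 semaphorins and for VEGF, fell under PdB, and NRP1 was also called below DMSO at recovery. NRP1 (ENSG00000099250.18, chromosome 10, 33177492 to 33336262, minus strand) had 199, 186 and 203 CPM in recovery cells, 193, 185 and 186 CPM in PdB cells and 445, 408 and 399.8 CPM in DMSO cells. All 6 treated libraries lay far below DMSO and overlapped with each other. Its log2 change was -1.15 ± 0.052 (adjusted p = 5e-13) under PdB and -1.09 ± 0.051 (adjusted p = 2.83e-12) at recovery, with 0.059 ± 0.051 (adjusted p = 0.326) in recovery against PdB. NRP2 had 22.2, 19.7 and 19.2 CPM in recovery cells, 8.07, 6.24 and 9.91 CPM in PdB cells and 19.8, 16.2 and 19.4 CPM in DMSO cells. PdB lay below both other groups, which overlapped. PdB against DMSO gave -1.19 ± 0.14 (adjusted p = 2.54e-07), recovery against PdB 1.34 ± 0.14 (adjusted p = 6.21e-08) and recovery against DMSO 0.14 ± 0.13 (adjusted p = 0.352).

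Of 9 plexins, 7 fell and 0 rose under PdB, and 7 fell and 0 rose in recovery against DMSO, with 4 and 6 of the falls at least 2-fold. The falls are 77.8% each time, beside 46.6% and 38.9% of protein-coding genes tested, of which 32.5% and 32.7% rose. At an unadjusted p below 0.05 and by DESeq2 the rises were also 0 in both comparisons, and DESeq2 called 6 and 7 falls. Plexins A1 to A4 are the receptors through which neuropilins pass on class 3 signals. PLXNA4 (ENSG00000221866.9, chromosome 7, 132123332 to 132648688, minus strand) had 0.994, 0.813 and 0.622 CPM in recovery cells, 1.36, 0.711 and 1.82 CPM in PdB cells and 11.4, 8.44 and 10.3 CPM in DMSO cells. Both treated groups lay far below DMSO and overlapped with each other. The log2 change was -2.96 ± 0.26 (adjusted p = 8.9e-09) under PdB and -3.63 ± 0.27 (adjusted p = 1.45e-09) at recovery. The call between them (-0.68 ± 0.29, adjusted p = 0.0452) was lost with library totals (adjusted p = 0.229) and without any DMSO replicate, PdB replicate 1 or 3 or recovery replicate 2 or 3, with adjusted p up to 0.268. PLXNA2 had 30.3, 30.5 and 31.9 CPM in recovery cells, 14.3, 13.9 and 16.4 CPM in PdB cells and 84.2, 84.7 and 90.3 CPM in DMSO cells. The 3 groups were apart, with log2 changes of -2.54 ± 0.072 (adjusted p = 1.22e-15) in PdB against DMSO, -1.48 ± 0.069 (adjusted p = 2.22e-12) in recovery against DMSO and 1.06 ± 0.072 (adjusted p = 2.29e-10) in recovery against PdB.

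PLXNA1, chosen after its values were seen as the plexin that lost the most CPM, had 90.4, 94.2 and 100.2 CPM in recovery cells, 142, 134 and 163 CPM in PdB cells and 392, 325 and 376 CPM in DMSO cells. No groups overlapped, and recovery was the lowest. The log2 change was -1.94 ± 0.076 (adjusted p = 2.82e-13) in recovery against DMSO, -1.31 ± 0.074 (adjusted p = 1.39e-11) in PdB against DMSO and -0.63 ± 0.074 (adjusted p = 5.22e-07) in recovery against PdB. PLXNA3 gave -1.22 ± 0.069 at recovery and -0.36 ± 0.068 under PdB, and the exons of LAGE3 on the opposite strand overlap it and held 31.3% as many counts. PLXND1, the SEMA3E receptor, fell by 0.91 ± 0.087 under PdB and fell by 1.13 ± 0.087 in recovery against DMSO, on the log2 scale.

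The B-type plexins, receptors for class 4 semaphorins, included both small and 2-fold changes. PLXNB2, the plexin with the highest level per length, had 239, 236 and 253 CPM in recovery cells, 255, 240.4 and 239 CPM in PdB cells and 282, 273 and 282 CPM in DMSO cells. Both treated groups lay below DMSO, with log2 changes of -0.19 ± 0.046 (adjusted p = 0.00146) under PdB and -0.20 ± 0.046 (adjusted p = 0.00095) at recovery. The fall under PdB was lost with RLE factors (adjusted p = 0.0931), with upper-quartile factors (adjusted p = 0.463), with DESeq2 (adjusted p = 0.0668) and without recovery replicate 2 (adjusted p = 0.0518). PLXNB1 passed no test, and PLXNB3 had 15.1, 12.8 and 16.6 CPM in recovery cells, 34.8, 28.2 and 31.5 CPM in PdB cells and 39.96, 29.6 and 31.1 CPM in DMSO cells. PdB and DMSO overlapped (-0.091 ± 0.11, adjusted p = 0.492), while recovery lay below both, with log2 changes of -1.18 ± 0.12 (adjusted p = 6.7e-08) against DMSO and -1.09 ± 0.12 (adjusted p = 1.57e-07) against PdB. SRPK3 overlaps PLXNB3 on the same strand with 28.9% as many counts. It gave -0.65 ± 0.18 in recovery against DMSO and -0.77 ± 0.18 in recovery against PdB. PLXNC1, the SEMA7A receptor, averaged 0.3904 ± 0.169 CPM in PdB cells and 1.07 ± 0.304 CPM in DMSO cells, and its fall (-1.45 ± 0.44, adjusted p = 0.00686) rests on 425 counts in all libraries together at a locus where CEP83, on the opposite strand, held 8993.

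The ephrins, the membrane-bound ligands of Eph receptors, held 4 of the 6 rises under PdB. Of 5 ephrin-A genes 3 rose and 2 fell under PdB, and of 3 ephrin-B genes 1 rose and 1 fell. Over all protein-coding genes tested, 32.5% rose and 46.6% fell. EFNA2 (ENSG00000099617.4, chromosome 19, 1286154 to 1300237, plus strand) had 1.44, 2.19 and 0.889 CPM in recovery cells, 2.495, 2.56 and 2.901 CPM in PdB cells and 0.0879, 0.127 and 0.159 CPM in DMSO cells. The recovery values stand for 90, 137 and 60 counts, the PdB values for 141, 144 and 151, and the DMSO values for 6, 8 and 11. Both treated groups lay above every DMSO library, and the log2 change of 4.39 ± 0.41 (adjusted p = 1.57e-08) under PdB was the largest of the 47 genes in either direction. Recovery against DMSO gave 3.57 ± 0.41 (adjusted p = 3.74e-07). Recovery lay below PdB (-0.82 ± 0.32, adjusted p = 0.0324), a call lost with library totals (adjusted p = 0.142) and without PdB replicate 2 or 3 or any recovery replicate other than 2, with adjusted p up to 0.155.

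EFNA1, a ligand of EPHA2 that rises with inflammatory signals in endothelial cells, was chosen after its values were seen. It had 4.796, 6.299 and 6.03 CPM in recovery cells, 3.33, 3.55 and 4.23 CPM in PdB cells and 1.04, 0.745 and 1.37 CPM in DMSO cells, with no overlap between groups. Its log2 change was 2.43 ± 0.23 (adjusted p = 2.66e-08) in recovery against DMSO and 1.81 ± 0.23 (adjusted p = 9.71e-07) in PdB against DMSO. Recovery against PdB gave 0.62 ± 0.21 (adjusted p = 0.0133), and without recovery replicate 2 it was 0.46 with an adjusted p of 0.117. EFNB1, a transmembrane ephrin, had 32.7, 30.8 and 34.2 CPM in recovery cells, 21.4, 21.6 and 17.7 CPM in PdB cells and 10.1, 9.21 and 10.04 CPM in DMSO cells, and its groups were also apart. The log2 change was 1.73 ± 0.093 (adjusted p = 1.59e-11) in recovery against DMSO, 1.05 ± 0.093 (adjusted p = 9.51e-09) in PdB against DMSO and 0.69 ± 0.09 (adjusted p = 1.86e-06) in recovery against PdB.

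The promoters of these 3 rising ephrins are shown with that of PLXNA4, the plexin with the deepest fall against DMSO, from 250 bases before to 50 after the RefSeq gene start on GRCh38.p14. RefSeq starts can differ from the gene positions given in this report, which come from another annotation. The PLXNA4 window lies inside the span given for that gene, away from its start at 132648688. The EFNA2 window ends before the start given for EFNA2, 1286154. GC boxes at the PLXNA4 start of the other annotation were not counted. Capitals mark GGGCGG on either strand, the core of the GC box that Sp-family factors bind. A pair of its matches in EFNA1 shares a base.
EFNA1, chr1:155127626-155127925, plus strand: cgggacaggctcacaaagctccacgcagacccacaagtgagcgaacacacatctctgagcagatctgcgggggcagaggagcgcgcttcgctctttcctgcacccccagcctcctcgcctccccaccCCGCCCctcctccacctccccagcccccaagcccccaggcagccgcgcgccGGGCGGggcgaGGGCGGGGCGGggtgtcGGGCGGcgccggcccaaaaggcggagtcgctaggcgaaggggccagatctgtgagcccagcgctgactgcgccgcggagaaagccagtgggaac
EFNA2, chr19:1285623-1285922, plus strand: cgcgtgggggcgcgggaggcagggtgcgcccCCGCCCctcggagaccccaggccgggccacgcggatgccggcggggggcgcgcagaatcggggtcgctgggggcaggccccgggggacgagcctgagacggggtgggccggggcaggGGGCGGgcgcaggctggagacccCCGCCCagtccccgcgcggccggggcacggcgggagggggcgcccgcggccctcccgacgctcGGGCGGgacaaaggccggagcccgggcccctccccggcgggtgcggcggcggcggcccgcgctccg
EFNB1, chrX:68828771-68829070, plus strand: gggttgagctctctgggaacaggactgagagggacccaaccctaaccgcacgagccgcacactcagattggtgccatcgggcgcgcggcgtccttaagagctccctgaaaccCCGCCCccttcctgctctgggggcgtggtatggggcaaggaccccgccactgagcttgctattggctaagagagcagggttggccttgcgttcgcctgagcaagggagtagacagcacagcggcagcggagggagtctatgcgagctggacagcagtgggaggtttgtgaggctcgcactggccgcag
PLXNA4, chr7:132576421-132576720, minus strand: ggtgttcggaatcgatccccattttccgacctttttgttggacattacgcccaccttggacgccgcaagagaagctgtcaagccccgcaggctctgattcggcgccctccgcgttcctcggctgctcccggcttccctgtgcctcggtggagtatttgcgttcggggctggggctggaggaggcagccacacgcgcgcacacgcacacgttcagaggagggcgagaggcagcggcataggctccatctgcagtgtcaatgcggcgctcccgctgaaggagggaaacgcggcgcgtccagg

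The 4 windows held 5, 4, 1 and 0 GC boxes in that order. None of them held a TATA box (TATAAA), a cAMP response element (TGACGTCA), an AP-1 site (TGANTCA) or an E-box (CACGTG). They do not stand for all genes that rose or fell. Windows of PLXND1, PLXNA1 and EPHB4, which fell under PdB, held 9, 5 and 5 GC boxes, and those of SEMA6D, which rose, 0, 3 and 0. Whether GC boxes go with the direction of change was not tested. RefSeq promoters were found for 47 of the 53 genes, 74 in all. These are not the 47 genes tested, as they include EPHA3 and SEMA5B. Some genes have several windows, which can overlap, as in EPHB2. A GC box stood in 55 of the 74 (74.3%) and in 45% of all 35116 promoters of the same length. TATAAA stood in 3 of the guidance promoters (4.05%), against 11.5% of all, and TGANTCA in 1 (1.35%) against 7.71%. TGACGTCA stood in 3 (4.05%) against 1.85%, and CACGTG in 4 (5.41%) against 7.26%. The median GC content was 66.2% in the guidance promoters and 58.7% in all promoters, with a median of 22 and 14 CpG. These are letter matches on both strands and say nothing of binding.

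EFNA5, an ephrin known for mapping retinal axons and the ephrin-A gene with the highest level per length, rose under PdB and was below DMSO at recovery. It had 25.9, 25.8 and 24.1 CPM in recovery cells, 77.2, 67.4 and 67.4 CPM in PdB cells and 39.9, 37.7 and 35.1 CPM in DMSO cells. The groups did not overlap. PdB against DMSO gave 0.91 ± 0.071 (adjusted p = 1.42e-09), recovery against DMSO -0.57 ± 0.072 (adjusted p = 1.53e-06) and recovery against PdB -1.48 ± 0.073 (adjusted p = 2.46e-12). EFNB2, the ephrin of arterial endothelium, had 74.2, 74.4 and 68.9 CPM in recovery cells, 56, 54.2 and 50.05 CPM in PdB cells and 73.4, 70.8 and 71.6 CPM in DMSO cells. PdB was below both other groups (-0.43 ± 0.059 (adjusted p = 3e-06) against DMSO), and recovery and DMSO overlapped (0.012 ± 0.058, adjusted p = 0.875). EFNB3 averaged 0.653 ± 0.418 CPM in PdB cells and 0.573 ± 0.229 CPM in DMSO cells and passed no test.

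EFNA4, EFNA3 and EFNA1 lie side by side on chromosome 1, from 155063731 to 155134857, a stretch of 71.1 kb with gaps of 9.3 and 39.9 kb. EFNA4 had 4.299, 4.74 and 3.56 CPM in recovery cells, 1.08, 0.817 and 0.615 CPM in PdB cells and 3.35, 3.28 and 4.04 CPM in DMSO cells. It fell under PdB (-2.08 ± 0.24, adjusted p = 2.63e-07) and was called higher in recovery than in PdB (2.32 ± 0.24, adjusted p = 7.06e-08), with recovery and DMSO overlapping. PdB lay below both. EFNA3 also fell under PdB (-1.34 ± 0.37, adjusted p = 0.00383), while EFNA1 rose. EFNA3 and EFNA4 share exons with the readthrough gene EFNA4-EFNA3, which held 1259 counts against their 850 and 1660 and changed by -2.29 ± 0.28, so the counts of the 3 may not be separate measurements.

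Of the Eph receptors, 5 of 9 EPHA and 4 of 5 EPHB genes were tested. Under PdB 3 EPHA and 2 EPHB genes fell and none rose, and in recovery against DMSO 3 EPHA genes and 1 EPHB gene rose and 1 of each (EPHA10 and EPHB2) fell. Among protein-coding genes tested, 46.6% fell and 32.5% rose under PdB, and 38.9% fell and 32.7% rose in recovery against DMSO. EPHA2 (ENSG00000142627.13, chromosome 1, 16124337 to 16156087, minus strand), a receptor kinase with a known part in breast cancer invasion and the guidance gene with the highest level per length, had 431, 435 and 413 CPM in recovery cells, 278, 274 and 276 CPM in PdB cells and 386, 391 and 390.5 CPM in DMSO cells. PdB was the lowest and recovery the highest, without overlap. PdB against DMSO gave -0.49 ± 0.041 (adjusted p = 3.8e-09) and recovery against PdB 0.63 ± 0.041 (adjusted p = 1.64e-10). The rise over DMSO at recovery was small (0.13 ± 0.041, adjusted p = 0.00986) and was lost without the filter on low counts (adjusted p = 0.0556) and without recovery replicate 2 (adjusted p = 0.0993).

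EPHA4, a receptor that binds ephrins of both classes, had 18.4, 21.4 and 18.9 CPM in recovery cells, 9.57, 9.98 and 7.09 CPM in PdB cells and 7.53, 7.17 and 8.29 CPM in DMSO cells. PdB overlapped with DMSO (0.21 ± 0.13, adjusted p = 0.143) and recovery lay above both, with log2 changes of 1.35 ± 0.12 (adjusted p = 2.58e-08) against DMSO and 1.14 ± 0.12 (adjusted p = 1.94e-07) against PdB. EPHB3, a Wnt target in the gut, had 11.2, 8.82 and 8.73 CPM in recovery cells, 3.19, 3.21 and 3.23 CPM in PdB cells and 3.16, 2.47 and 3.74 CPM in DMSO cells. Recovery again lay above both, with 1.61 ± 0.17 (adjusted p = 1.29e-07) against DMSO and 1.58 ± 0.17 (adjusted p = 1.48e-07) against PdB, and PdB against DMSO was 0.036 ± 0.17 (adjusted p = 0.862). EPHA5 rose in recovery against DMSO (0.71 ± 0.22, adjusted p = 0.00882), a call that was lost without DMSO replicate 3 (adjusted p = 0.0528) or recovery replicate 1 (adjusted p = 0.0572).

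EPHB2 (ENSG00000133216.17, chromosome 1, 22710839 to 22921500, plus strand), also a Wnt target in the gut and a kinase receptor for ephrin-B ligands, had the deepest fall of an Eph receptor. It had 5.25, 6.03 and 8.24 CPM in recovery cells, 23.5, 22.6 and 27.96 CPM in PdB cells and 73.1, 70.99 and 80.2 CPM in DMSO cells, in an order without overlap. Recovery against DMSO gave -3.52 ± 0.13 (adjusted p = 1.19e-13), PdB against DMSO -1.60 ± 0.12 (adjusted p = 4.55e-10) and recovery against PdB -1.92 ± 0.13 (adjusted p = 1.47e-10). EPHB4, the EFNB2 receptor of veins and the EPHB gene with the highest level per length, had 88.3, 93.3 and 89.2 CPM in recovery cells, 34.7, 38.5 and 35.7 CPM in PdB cells and 89.6, 92.01 and 97.3 CPM in DMSO cells. PdB was below both other groups, which overlapped. Its log2 change was -1.36 ± 0.059 (adjusted p = 3.23e-13) in PdB against DMSO, 1.31 ± 0.059 (adjusted p = 7.27e-13) in recovery against PdB and -0.043 ± 0.057 (adjusted p = 0.54) in recovery against DMSO. SLC12A9 overlaps it on the opposite strand with 35% as many counts, and gave -0.71 ± 0.077 under PdB and 0.05 ± 0.077 in recovery against PdB.

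EPHA10 and EPHA1 were thinly counted. EPHA10 had 0.257, 0.287 and 0.207 CPM in recovery cells, 0.602, 0.533 and 0.231 CPM in PdB cells and 0.849, 1.03 and 1.16 CPM in DMSO cells. Both treated groups lay below DMSO, and recovery gave -2.01 ± 0.48 (adjusted p = 0.00144). The fall under PdB (-1.15 ± 0.46, adjusted p = 0.0357) was lost with RLE factors (adjusted p = 0.0539) and upper-quartile factors (adjusted p = 0.0636). It was also lost without the filter on low counts (adjusted p = 0.0557). The same held without DMSO replicate 2 or 3, PdB replicate 3 or recovery replicate 2 (adjusted p from 0.0573 to 0.12). EPHA1 had 2.33, 2.17 and 2.55 CPM in recovery cells, 0.991, 0.586 and 1.34 CPM in PdB cells and 2.02, 1.697 and 1.28 CPM in DMSO cells. Its exons overlap those of ZYX, which held 182113 counts against 946 and changed by -0.81 ± 0.046 under PdB and 1.33 ± 0.046 in recovery against PdB. PdB and DMSO overlapped for EPHA1, which gave -0.78 ± 0.31 (adjusted p = 0.0309) and 1.27 ± 0.30 (adjusted p = 0.00125) in the same comparisons. The fall was lost without DMSO replicate 1 or 2, PdB replicate 2 or recovery replicate 2 (adjusted p from 0.0632 to 0.129). It was also lost with RLE factors (adjusted p = 0.0543) and upper-quartile factors (adjusted p = 0.0791). The same held with a mean of 50 counts or more (adjusted p = 0.06) and with only the 6 libraries compared (adjusted p = 0.0947). EPHB6, a receptor without kinase activity, averaged 0.114 ± 0.1502 CPM in PdB cells and 0.212 ± 0.0921 CPM in DMSO cells and passed no test.

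**Figure D3:**
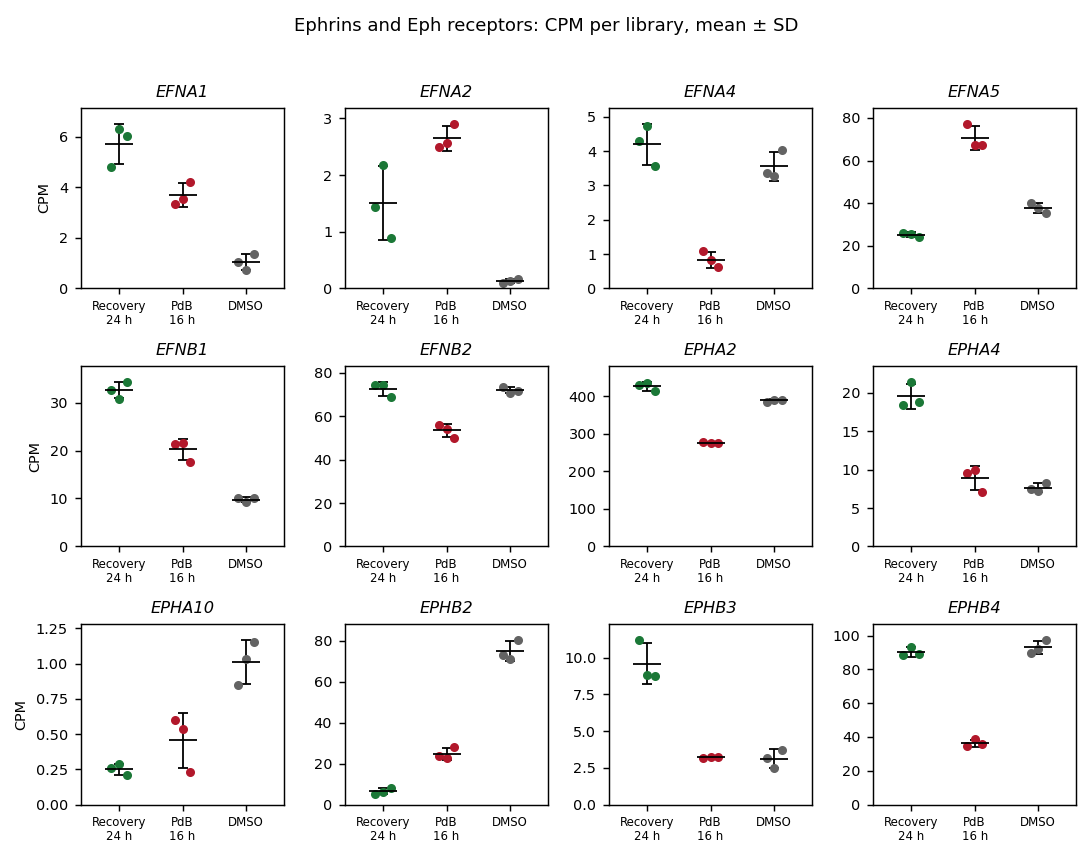
CPM (y axis, from 0) in each library of recovery, PdB and DMSO cells (x axis) for 12 ephrin and Eph receptor genes, with points for libraries and bars for mean ± SD of 3. EFNA1, EFNA2 and EFNB1 were higher in both treated groups than in DMSO cells, EFNA4 and EPHB4 were lowest in PdB cells, and EPHB2 was lowest in recovery cells.

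Ranked by mean RPKM over the 9 libraries, 8 of the 53 genes averaged at least 10 RPKM, 29 at least 1 and 42 at least 0.1. EPHA2 led with 102 ± 2.74 RPKM in recovery cells, 66.4 ± 0.454 RPKM in PdB cells and 93.6 ± 0.708 RPKM in DMSO cells (SD, n = 3 each). PLXNB2 came next with 33.4 ± 1.23 RPKM in recovery cells, 33.7 ± 1.21 RPKM in PdB cells and 38.4 ± 0.7498 RPKM in DMSO cells. NRP1 (mean over libraries 23.2 RPKM), PLXNA1 (18.5), SEMA3C (16.3), SEMA7A (13.7), EFNB2 (13.1) and EPHB4 (11.4) followed. In recovery cells the order was different, with SEMA7A at 17.2 ± 0.978 RPKM level with NRP1 at 17 ± 0.779 RPKM, and PLXNA1 at 8.67 ± 0.451 RPKM below EPHB4 at 14.03 ± 0.418 RPKM. In PdB cells EFNA5, at 12.4 ± 0.987 RPKM, was the ephrin with the highest level per length. In DMSO cells NRP1 and PLXNB2 did not differ beyond their spread, at 36.3 ± 2.104 RPKM and 38.4 ± 0.7498 RPKM, and neither did NRP1 and PLXNA1, at 33.3 ± 3.22 RPKM.

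**Figure D4:**
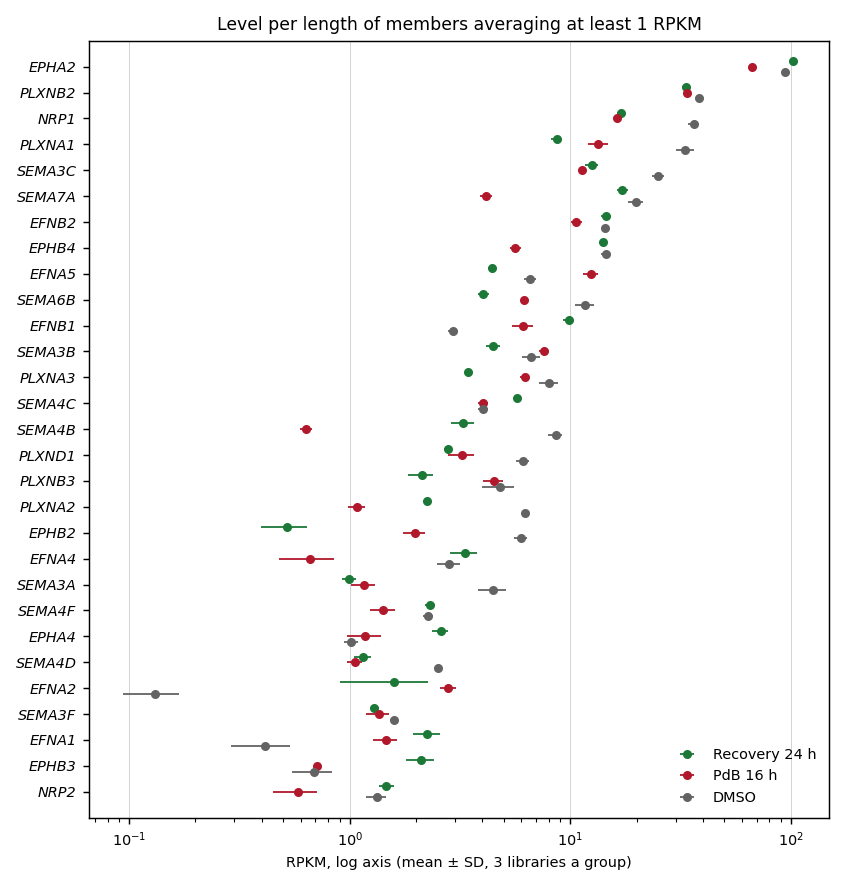
RPKM (x axis, log scale) of the 29 genes averaging at least 1 RPKM, ranked from the top, with mean ± SD of 3 libraries for recovery, PdB and DMSO cells. EPHA2 and PLXNB2 lead, and the PdB values of SEMA7A and SEMA4B lie far left of those of the other groups.

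The proteins that act beside and below these receptors were read from a list of 87 genes, of which 72 were tested. Under PdB 20 rose and 42 fell, with a median log2 change of -0.48, and with library totals 13 rose. In recovery against DMSO 16 rose and 33 fell, with a median of -0.24, and in recovery against PdB 35 rose and 26 fell, with a median of 0.30 (40 and 18 with library totals). For all genes tested the shares called up and down were 32.0% and 38.2% under PdB, 30.7% and 30.5% in recovery against DMSO and 34.6% and 31.5% in recovery against PdB, and their medians stand above. Shares and medians of the protein-coding genes stand there too. The largest rise under PdB was RND3, a small GTPase that binds plexins, with 644 ± 45.2 CPM in PdB cells and 95.3 ± 0.868 CPM in DMSO cells, with a log2 change of 2.76 ± 0.054. RASA1, a Ras GTPase-activating protein that docks on EPHB receptors, averaged 14.8 ± 0.797 CPM in PdB cells and 142 ± 8.01 CPM in DMSO cells and fell by 3.26 ± 0.065 on the log2 scale. The fitted fall was larger for SLIT1, a Robo ligand, but rested on 0, 0 and 2 counts in PdB cells and 12, 15 and 3 counts in DMSO cells. SLIT1 also had the largest fitted rise in recovery against PdB, with 2, 23 and 3 counts in recovery cells, and NTN3, a netrin with 2, 3 and 6 counts in recovery cells and 23, 11 and 10 in PdB cells, the largest fall.

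At recovery against DMSO the largest rise on that list was FES, a kinase that binds plexin-A1, at 2.02 ± 0.182 CPM in recovery cells and 0.267 ± 0.108 CPM in DMSO cells (2.91 ± 0.35). The largest fall was MICAL2, of the MICAL family of oxidases that act on actin, at 128 ± 7.71 CPM in recovery cells and 674 ± 8.596 CPM in DMSO cells (-2.39 ± 0.052). By role, 14 of 22 tested cytoplasmic partners of plexins (63.6%) fell and 5 (22.7%) rose under PdB. Of 19 partners of Eph receptors, 9 (47.4%) fell and 8 (42.1%) rose. Among all protein-coding genes tested 46.6% fell and 32.5% rose. By DESeq2 11 partners of plexins fell and 5 rose, and 8 partners of Eph receptors fell and 9 rose. With TMM scaling all 9 cytoskeletal effectors changed under PdB, 3 up (RHOA, CDC42 and CFL1) and 6 down (PAK1, PAK2, ROCK1, ROCK2, LIMK1 and LIMK2), and in recovery against PdB 7 of the 9 rose and 2 fell. In recovery against PdB 40.4% of protein-coding genes rose and 36.1% fell. Of 5 proteases that shed ephrins or trim semaphorins, 4 fell and 0 rose under PdB, beside the 46.6% and 32.5% of protein-coding genes. Rises were also 0 at an unadjusted p below 0.05 and by DESeq2, which called 3 falls. Of 6 tested VEGF ligands and receptors, which share neuropilins with semaphorins, 3 fell and 2 rose, and of 11 other guidance ligands and receptors 6 fell and 2 rose.

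The genes differ widely in structure. In the GENCODE 29 annotation plexins have 30 to 37 introns and ephrins 3 to 4, and the 47 tested genes a median of 16, against 8 over all protein-coding genes tested. Across the 47 genes, which share libraries and ancestry and are not independent, Spearman's rank correlation between intron number and log2 change was -0.14 under PdB and -0.37 in recovery against DMSO. Over all 14226 protein-coding genes tested it was -0.33 and -0.20. In recovery against PdB it was -0.19 for the guidance genes and 0.21 for all.

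Exons of another gene overlap 19 of the 53 genes, and whether counting used strand is not given in the sources used here. In 9 of them the other gene held at least 25% as many counts, and in EFNA3, EPHA1, PLXNC1 and SEMA4G more than the gene itself. For SEMA4G that gene is MRPL43, with 32055 counts against 887, which changed by -0.46 ± 0.053 in recovery against PdB, where SEMA4G gave 0.77 ± 0.31. Changes of these 4 genes are uncertain.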

How the data were processed

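The 9 libraries were made from polyadenylated RNA of MDA-MB-231 cells, 3 each for recovery, PdB and DMSO. The authors deposited whole-number read counts, not normalised, with 1 row for each of 60708 genes. The tools named in the submitters' processing notes are STAR 2.7.9a, featureCounts 2.0.3, fastp 0.23.2, DESeq2 1.30.0 and Picard, and the genome is hg38. For the tool settings, the gene annotation and the use of strand, nothing is given in the sources used here. Reads of overlapping genes may therefore be counted together.

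Symbols were matched to 60696 gene IDs, and gene types, positions, exon lengths and introns to 58440 of them from GENCODE 29. Only 6 of the 53 guidance genes have the same ID version there. Positions, levels per length, introns and overlaps may therefore differ from the annotation used for counting. After filterByExpr 20812 genes were kept, and edgeR's quasi-likelihood test (two-sided, TMM scaling, edgeR 4.0.16, R 4.3.3) was fitted to the 9 libraries together, with group as its only term. P-values were adjusted by Benjamini-Hochberg over all genes tested and called below 0.05. The standard error of a log2 change is its size divided by the root of the F statistic. Errors on CPM are SD. The common biological coefficient of variation was 0.111. The procedure was tested on simulated data in which few genes changed, with rises and falls at equal odds. Such data cannot show how scaling acts where many genes change, as here. A level of 3 counts corresponds to 0.0449 CPM on average in DMSO cells, which covers counting error only, as PCR copies are not separate molecules.

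The genes, the list of 87 partners and the naming rule were chosen with earlier results of these data known. Per family, the largest rise and fall in each comparison and the gene with the highest level per length are given in full, as are EFNA1 and PLXNA1. Library pairs within groups differed beyond counting noise (chi-square per degree of freedom from 4.97 to 26.4), so none was taken for a duplicate. Alternatives were scaling by RLE, upper quartiles or library totals, other filters (none, or a mean of 50 counts or more), DESeq2 1.42.0, only the 6 libraries compared, a replicate block, an adjusted p of 0.01 and each library left out. Promoters come from RefSeq on GRCh38.p14.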

Additional observations from a re-analysis of the deposited data

How the results depend on the processing

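The counts of guidance genes called kept within 1.5 times of those reported under every alternative run. They ranged from 5 to 8 up and 23 to 30 down in PdB against DMSO, from 9 to 11 up and 20 to 23 down in recovery against DMSO, and from 16 to 25 up and 9 to 14 down in recovery against PdB, left-out libraries included. Of the partner list, 13 genes rose under PdB with library totals, against 20 as reported. The median log2 change of all genes in PdB against DMSO was -0.31 with library totals, -0.014 with RLE and 0.039 with upper-quartile factors. Changes smaller than this spread, such as those of SEMA3B and PLXNB2, lost their call with some of these. Larger changes of thinly counted genes, those of EPHA1 (-0.778) and EPHA10 (-1.145), lost it with both RLE and upper-quartile factors. Over the 28 genes given in full, 1334 recomputed changes kept their direction and their side of the threshold, 57 lost the call, 12 gained one and 2 changed sign where 1 of the 2 values was called. These were SEMA3B in PdB against DMSO (-0.004, adjusted p = 0.972) and PLXNB2 in recovery against PdB (0.254, adjusted p = 7.7e-05), both with library totals. A further 20 changed sign without being called either time. In PdB against DMSO, PLXNB3 was 0.006 with RLE factors and with DESeq2, 0.058 with upper-quartile factors, 0.032 with a mean of 50 counts or more and -0.172 to 0.054 without single libraries, EPHB3 was -0.161 with library totals and -0.105 to 0.186 without single libraries, and SEMA5A was -0.555 to 0.001 without single libraries. In recovery against DMSO, EPHB4 was 0.003 with RLE factors and with DESeq2, 0.028 with library totals and 0.034 with upper-quartile factors, and EFNB2 was -0.002 without the filter and -0.021 to 0.048 without single libraries. In recovery against PdB, SEMA3A was 0.049 with library totals, PLXNB2 was 0.006 without the filter and -0.084 to 0.016 without single libraries, and NRP1 was -0.015 with upper-quartile factors and -0.025 with a mean of 50 counts or more. Groups share replicate numbers in the labels. Over all genes tested, deviations of same-numbered libraries from their group means correlated at -0.003 to 0.048. Genes with few counts weigh in these values, so they cannot tell whether the numbers pair the samples. With the replicate block 27 genes fell and 7 rose in PdB against DMSO, and the calls of EPHA5 (0.477, adjusted p = 0.00924), SEMA6C in recovery against DMSO (-0.537, adjusted p = 0.0472) and SEMA3A in recovery against PdB (-0.215, adjusted p = 0.0393) were gained and that of SEMA6A in recovery against PdB was lost (adjusted p = 0.0588). Depth limits the genes under about 1 CPM, such as SEMA4A, EFNB3, EPHB6 and EPHA10, and EPHB6 was called lower under PdB without PdB replicate 2 (-2.83, adjusted p = 0.0485).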
